A study of Schizosaccharomyces pombe with 4 samples.

Results

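The genes atf1 and gpx1 of the fission yeast Schizosaccharomyces pombe were followed as single loci in 4 maps of newly made histone H3. Every array probe that was not a control and whose centre lay inside either annotated gene or in the 1000 bp upstream of its start was taken, with the upstream stretch called the promoter here. This gave 127 of 43993 probes, 93 at atf1 (73 in the body, 20 in the promoter) and 34 at gpx1 (14 in the body, 20 in the promoter). The comparison set was the 873 protein-coding genes of the same chromosome II tiles, which include both. The genes were chosen by name and not by a measured value.

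The 4 genotypes were clr3D, IRD2, the double mutant IRD2 clr3D and wild type (WT), with 1 array each. All strains, WT included, carried a plasmid from which FLAG-tagged H3.2 is made under the invertase promoter. They were grown without leucine in 8% glucose, held with 15 mM hydroxyurea (an inhibitor of deoxynucleotide synthesis that stalls cells in S phase) for 4 h, and then kept for 2 h in 4% sucrose with hydroxyurea, which turns the tagged histone on. After 20 min in 1% formaldehyde, chromatin was sheared to 400 to 600 bp. DNA bound to anti-FLAG was labelled with Cy5 and DNA of the whole-cell extract with Cy3, both after amplification by random-primed PCR. clr3 encodes a histone deacetylase of heterochromatin; clr3D denotes strains labelled as lacking it, and no probe of clr3 was used here. The labels do not define IRD2. In the extract channel, 4 probes of a chromosome 2 segment picked from earlier results of these data differed from WT by -8.51 log2 units in IRD2 and by -8.06 in IRD2 clr3D, against -0.66 in clr3D, so both arrays labelled IRD2 had almost no DNA signal there. A value is an average over a population of cells held in hydroxyurea, and no unstressed or uninduced array is part of the comparison.

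Each value below is log2 of Cy5 over Cy3 minus the median of its array, so 0 is the level of a typical probe. A single-channel value (Cy5 alone or Cy3 alone) is log2 of that signal, centred in the same way. With 1 array per genotype, a difference between arrays has no replicate and no test. The SD given is that between the overlapping probes of a window, which share sheared fragments and are not replicates. At least 43811 probes per array were well above background and none was saturated. At the 2 genes, all probes were well above background in every array, apart from 1 promoter probe of gpx1 in WT, and 1 promoter probe of atf1 was left out of the IRD2 clr3D array as an outlier spot.

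New H3 enters chromatin behind replication forks and, outside S phase, where nucleosomes are exchanged, which happens mostly at promoters and over transcribed genes. Atf1 is a bZIP transcription factor that is phosphorylated by the stress-activated MAP kinase Sty1 and, usually paired with Pcr1, binds CRE sites (cyclic AMP response elements) in the promoters of stress genes. Gpx1 belongs to the glutathione peroxidase family of enzymes, which reduce peroxides. Both belong to the genes that fission yeast induces under environmental stress.

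The 300 bases before each annotated start are shown because the difference between IRD2 and the other genotypes at atf1 spans them and because they hold matches to motifs of stress factors. They come from the RefSeq annotation of assembly ASM294v3, at chrII:1545917-1546216 (plus strand) for atf1 and chrII:2789588-2789887 (minus strand) for gpx1, 5′ to 3′. Capitals mark TGACGTCA, the palindromic CRE, in atf1 and TTACGTAA, a palindrome bound by Pap1-type bZIP factors, in gpx1. The tRNA gene SPBTRNATHR.07 (tRNA-Thr), chrII:2790375-2790446 on the minus strand, is shown because it lies inside the 1 kb upstream of gpx1, with the internal promoter motif (B box, GTTCNANNC) in capitals.
atf1 promoter: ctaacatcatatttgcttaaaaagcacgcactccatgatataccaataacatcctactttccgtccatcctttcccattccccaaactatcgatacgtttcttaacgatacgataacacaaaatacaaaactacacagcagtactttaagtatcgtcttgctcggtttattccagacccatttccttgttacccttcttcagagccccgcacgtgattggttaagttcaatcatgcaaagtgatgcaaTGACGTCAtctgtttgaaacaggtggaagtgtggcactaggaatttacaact
gpx1 promoter: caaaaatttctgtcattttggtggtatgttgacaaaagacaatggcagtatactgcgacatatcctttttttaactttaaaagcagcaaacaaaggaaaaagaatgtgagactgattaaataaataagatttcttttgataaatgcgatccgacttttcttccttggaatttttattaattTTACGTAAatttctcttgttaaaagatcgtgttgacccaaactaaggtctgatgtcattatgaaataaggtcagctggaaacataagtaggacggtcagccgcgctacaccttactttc
SPBTRNATHR.07: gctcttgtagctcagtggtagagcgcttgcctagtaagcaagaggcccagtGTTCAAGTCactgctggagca

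The CRE palindrome of atf1 lay 52 to 45 bp upstream of the start, and the TTACGTAA of gpx1 119 to 112 bp upstream. On either strand, TGACGTCA occurred in 16 (0.312%) and TTACGTAA in 28 (0.547%) of the 5123 annotated promoters of this length. The CRE core TGACGT, which the palindrome contains on both strands, occurred in 308 (6.01%) and had no match in the gpx1 window. The B box letters were found in 179 of 196 annotated tRNA genes (91.3%). These motifs were picked after the sequences had been read, and a match is a run of letters, not a measured binding site.

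In the annotation atf1 runs on the plus strand over 3646 bp with 2 exons. In the array's coordinates it spans chromosome 2, 1547117 to 1550762, with the promoter at 1546117 to 1547116. Its first intron, 855 bp long, lies in the 5′ untranslated part, and the 1701 bp coding sequence begins 1444 bp after the start. The lncRNA gene SPNCRNA.1441 covers 789 bases of the promoter on the same strand, and SPNCRNA.5237 covers 565 bases of the promoter and 644 of the body on the opposite strand. gpx1 runs on the minus strand over 725 bp with 1 exon, at 2790663 to 2791387 in the array's coordinates, with the promoter at 2791388 to 2792387 and a coding sequence of 477 bp. The 3′ end of gem7 overlaps 25 bases of its body on the opposite strand, and the lncRNA gene SPNCRNA.1549 covers 543 bases of its promoter, also on the opposite strand. DNA signals cannot be assigned to a strand. The GC content was 31.2% in the promoter and 38.5% in the body of atf1, and 32.7% and 37.5% in those of gpx1.

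New H3 over atf1 separated the genotypes mainly at its promoter. The promoter mean was 0.18 in clr3D, -0.53 in IRD2, -0.22 in IRD2 clr3D and 0.28 in WT (SD between probes 0.39, 0.33, 0.15 and 0.35 in that order, 20 probes, 19 in IRD2 clr3D). The levels of clr3D and WT did not keep their sign: with normexp background correction the promoter was at -0.15 in clr3D and -0.02 in WT, and with a promoter of 500 bp at -0.15 in clr3D and -0.00 in WT. With within-array loess the level of IRD2 clr3D was -0.01. The body mean was 0.25 in clr3D, 0.04 in IRD2, 0.05 in IRD2 clr3D and 0.28 in WT (SD between probes 0.19, 0.28, 0.21 and 0.29, 73 probes), in the same order as the promoter but within a narrower range.

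The 2 arrays labelled IRD2 were not alike within the promoter. In the 500 bp next to the start, the mean was -0.15 in clr3D, -0.82 in IRD2, -0.30 in IRD2 clr3D and -0.00 in WT. All 10 probes of IRD2 there, whose highest was -0.60, lay below all probes of the other 3 arrays, whose lowest was -0.45, in IRD2 clr3D. In the 500 bp farther upstream, the mean was 0.50 in clr3D, -0.24 in IRD2, -0.13 in IRD2 clr3D and 0.56 in WT. In that distal stretch the IRD2 clr3D array lay close to IRD2, whereas next to the start it lay closer to clr3D. In WT the highest probe of the promoter, at 0.91, was centred 577 bp upstream, and in IRD2 the lowest, at -1.01, 377 bp upstream. The WT probe was dim, with processed signals of 76.4 in Cy3 and 141 in Cy5 against array medians of 1114 and 1084.

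**Figure D1:**
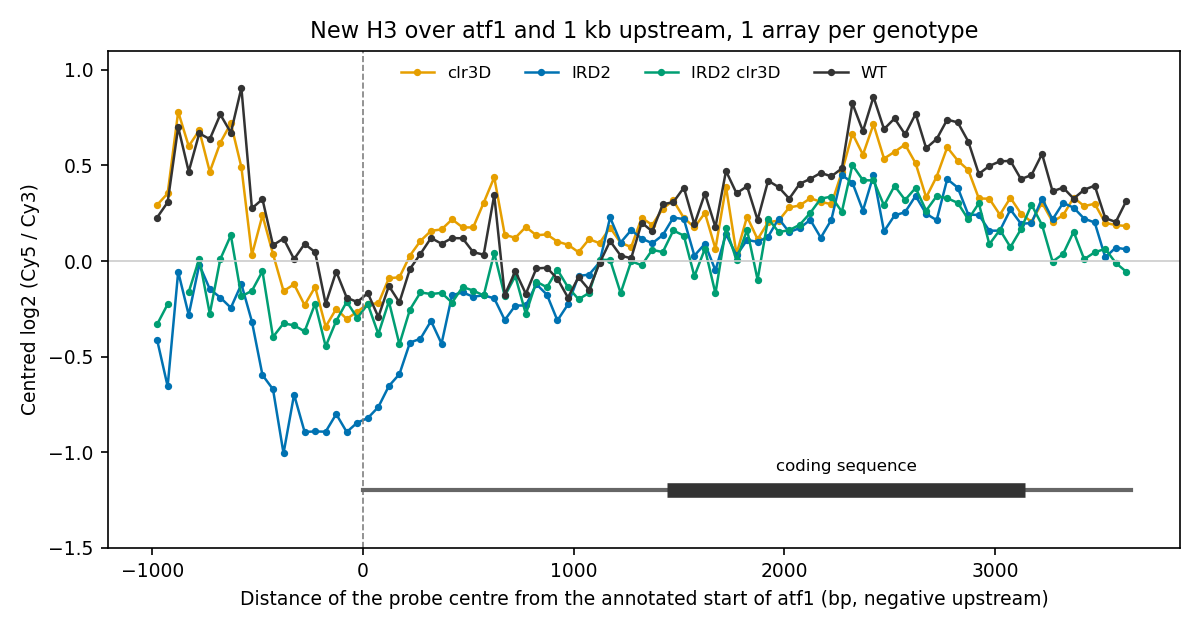
Centred log2 Cy5/Cy3 of each probe along atf1 and 1 kb upstream (vertical axis, log2) against the distance of the probe centre from the annotated start (horizontal axis, bp), 1 line per array. The thick bar is the coding sequence and the thin line the gene. The IRD2 array reaches its lowest value of -1.01 at 377 bp upstream, and the distance between IRD2 and the other arrays narrows within the gene.

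Probe by probe, 54 of 93 were at least 0.25 lower in IRD2 than in WT and none was as much higher. From 977 bp upstream to 474 bp downstream of the start, 30 of them followed each other without a break, with a median difference of -0.69. This stretch covers the promoter, the first exon and the start of the first intron. The 5 probes of the first exon had means of -0.12 in clr3D, -0.65 in IRD2, -0.30 in IRD2 clr3D and -0.17 in WT. The 17 probes of the intron had 0.16 in clr3D, -0.22 in IRD2, -0.15 in IRD2 clr3D and -0.00 in WT, so here clr3D was above WT, in 17 of 17 probes. In the coding sequence the levels were 0.36 in clr3D, 0.21 in IRD2, 0.21 in IRD2 clr3D and 0.51 in WT, and there WT was the highest and both arrays labelled IRD2 were equal.

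The 2 probes that overlap the CRE palindrome are centred 77 and 27 bp upstream of the start. The first had a ratio of -0.30 in clr3D, -0.89 in IRD2, -0.21 in IRD2 clr3D and -0.19 in WT. The second had -0.26 in clr3D, -0.84 in IRD2, -0.30 in IRD2 clr3D and -0.21 in WT. Over the CRE, 3 arrays lay between -0.30 and -0.19 and IRD2 alone was lower. The fragments are longer than a probe, so the signal is not that of the site alone.

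As a difference from WT, the promoter of atf1 was at -0.11 in clr3D, -0.81 in IRD2 and -0.50 in IRD2 clr3D. Over the 19 probes measured in both arrays, IRD2 clr3D differed from WT by -0.48. In IRD2 the promoter was lower than WT in 20 of 20 probes and in IRD2 clr3D in 19 of 19, against 14 of 20 in clr3D. These counts were near those of the surroundings. Of the 200 probes within 5 kb on either side, 189 in IRD2, 187 in IRD2 clr3D and 154 in clr3D were lower than WT. The share of the 873 promoters that were at least 0.25 lower than WT was 10.3% in IRD2, 15.3% in IRD2 clr3D and 4.35% in clr3D. The atf1 promoter ranked 11th from the lowest of 873 in IRD2 minus WT and 29th in IRD2 clr3D minus WT. With normexp the promoter differences were -0.50 in IRD2 and -0.23 in IRD2 clr3D, so the double mutant no longer reached 0.25. For the body the differences were -0.04 in clr3D, -0.24 in IRD2 and -0.23 in IRD2 clr3D, none of which reached 0.25. Both IRD2 values did so with normexp (-0.41 in IRD2 and -0.39 in IRD2 clr3D) and over the coding sequence alone (-0.29 in each), and that of IRD2 clr3D also with loess (-0.29) and as a median over probes (-0.28). The shares of bodies at least 0.25 lower were 4.58%, 8.82% and 10.1% for clr3D, IRD2 and IRD2 clr3D. The 200 probes within 5 kb on either side of the gene and promoter also differed from WT, by -0.16 in clr3D, -0.35 in IRD2 and -0.37 in IRD2 clr3D, a comparison made with the processed signals alone. With these, in the 2 arrays labelled IRD2, the body differed from WT by less than its surroundings did and the promoter by more.

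The 2 channels divided this difference. With Cy5 alone, the FLAG precipitate, the atf1 promoter had levels of -1.40 in clr3D, -1.82 in IRD2, -1.36 in IRD2 clr3D and -1.35 in WT. IRD2 alone was lower, by -0.47 against WT, and IRD2 clr3D differed from WT by -0.01. With Cy3 alone, the extract, the levels were -1.60 in clr3D, -1.30 in IRD2, -1.15 in IRD2 clr3D and -1.65 in WT, which is 0.35 above WT in IRD2 and 0.50 above WT in IRD2 clr3D. The low promoter ratio of IRD2 thus came with both a lower precipitate and a higher extract signal, whereas that of IRD2 clr3D came, averaged over the window, with a higher extract signal alone. Over all 873 promoters the median difference from WT in the extract was 0.06 in IRD2 and 0.18 in IRD2 clr3D. The part of the extract in these ratios was not tested.

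The lower precipitate in IRD2 had its own extent. With Cy5 alone, 24 neighbouring probes from 677 bp upstream to 474 bp downstream were at least 0.25 below WT, with a median of -0.47. In the 500 bp next to the start, the Cy5 difference from WT was -0.12 in clr3D, -0.51 in IRD2 and 0.13 in IRD2 clr3D. The 500 bp farther upstream had Cy5 differences of 0.03 in clr3D, -0.43 in IRD2 and -0.24 in IRD2 clr3D, so the double mutant was above WT in 9 of 10 probes next to the start and below it in 6 of 9 in the distal stretch. The distal value of IRD2 clr3D lacks the probe left out of that array, and over the 9 probes measured in both arrays its Cy5 difference from WT was -0.17. Among the 873 promoters, the Cy5 difference of atf1 in IRD2 ranked 15th from the lowest. In the body, the Cy5 difference was 0.00 in clr3D, -0.04 in IRD2 and -0.04 in IRD2 clr3D, while Cy3 was 0.03, 0.21 and 0.20 above WT in the same arrays.

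**Figure D2:**
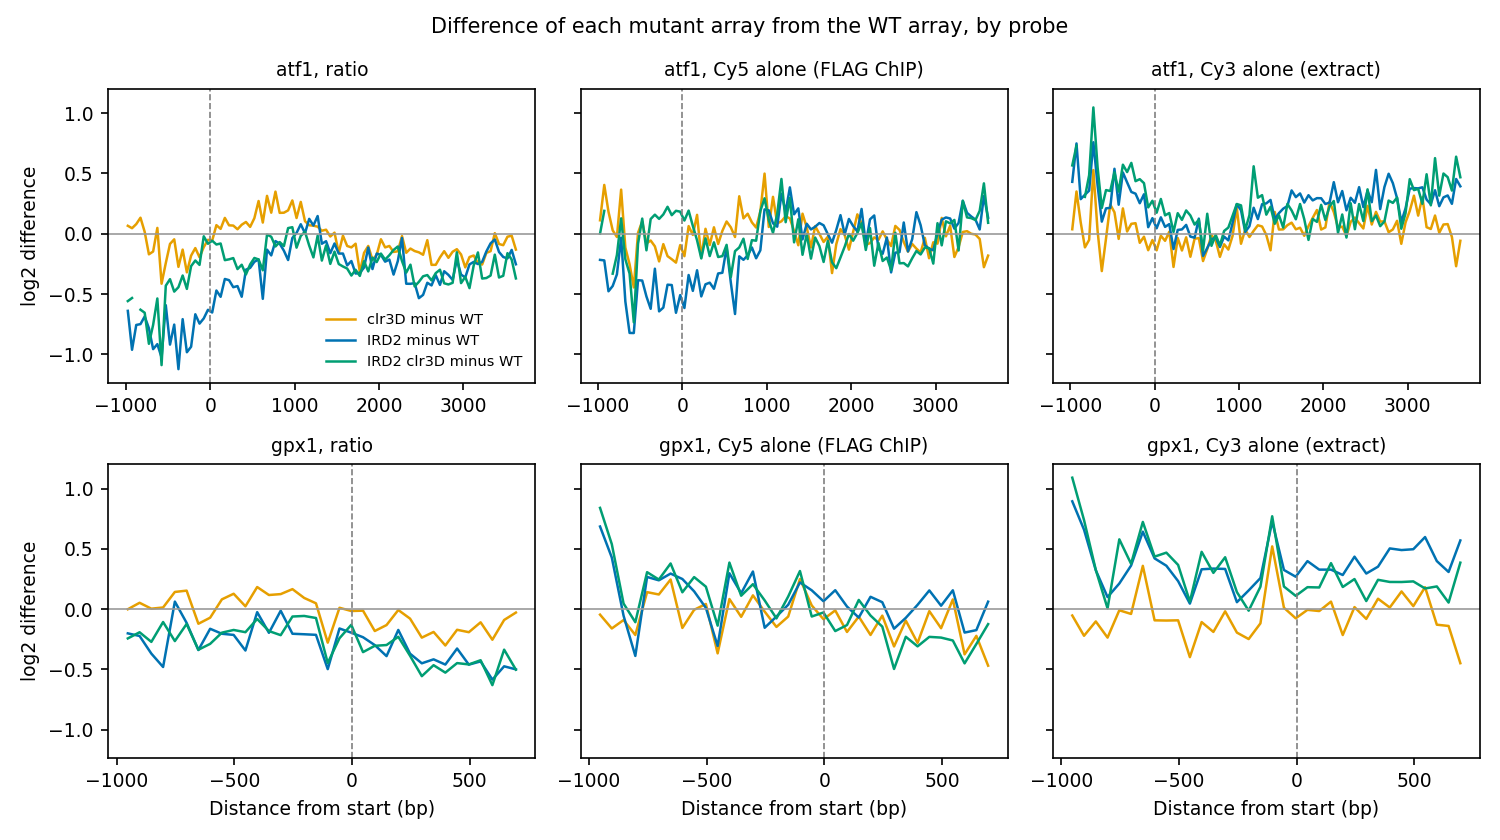
Difference of each mutant array from the WT array (vertical axis, log2) against the distance of the probe from the gene start (horizontal axis, bp), for the ratio, Cy5 alone and Cy3 alone, at atf1 (upper panels) and gpx1 (lower panels). In the 500 bp before the start of atf1 the Cy5 line of IRD2 lies below 0 (mean -0.51) and that of IRD2 clr3D lies above 0 in 9 of 10 probes (mean 0.13). At the gpx1 body the IRD2 line departs from 0 in Cy3 (mean 0.41) and not in Cy5 (mean 0.01).

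In the IRD2 background, loss of clr3 went with a higher ratio at the atf1 promoter. IRD2 clr3D minus IRD2 was 0.31 and clr3D minus WT was -0.11, a difference of differences of 0.42 that was not tested. The value of clr3D minus WT was within its SD between probes of 0.14, which is a spread along the window and not an error. In this comparison 4 of 10 probes were lower in the distal stretch and 10 of 10 next to the start. Without promoter probes inside neighbouring annotated genes the values were 0.11 for IRD2 clr3D minus IRD2 and 0.08 for clr3D minus WT, so the signs were then alike. Only probes centred 977 to 827 bp upstream remain in that setting, and none next to the start. The probe at 877 bp was left out of IRD2 clr3D, so the 0.11 does not compare the same probes. Over the whole promoter, IRD2 clr3D exceeded IRD2 in 17 of 19 probes and, next to the start, in 10 of 10. The 13 neighbouring probes from 477 bp upstream to 124 bp downstream were at least 0.25 higher in IRD2 clr3D than in IRD2, by a median of 0.53, and with Cy5 alone 14 probes from 527 bp upstream to 124 bp downstream by a median of 0.61. Of all promoters, 3.55% were at least 0.25 higher in IRD2 clr3D than in IRD2, and atf1 was 19th from the highest. The difference of differences was at least 0.25 in 7.9% of promoters. In the body, IRD2 clr3D minus IRD2 was 0.01, with 38 of 73 probes higher.

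gpx1 had a different layout. Its body mean was 0.19 in clr3D, -0.06 in IRD2, -0.09 in IRD2 clr3D and 0.34 in WT (SD between probes 0.12, 0.08, 0.08 and 0.16, 14 probes). The clr3D and WT arrays had every body probe above 0, whereas 10 of 14 body probes in IRD2 and 11 of 14 in IRD2 clr3D were below 0. Its promoter mean was -0.22 in clr3D, -0.48 in IRD2, -0.46 in IRD2 clr3D and -0.26 in WT (SD between probes 0.23, 0.27, 0.25 and 0.25, 20 probes), below the typical probe in every array. The 2 arrays labelled IRD2 lay closer to each other than to clr3D or WT in each window of the plot of window means.

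**Figure D3:**
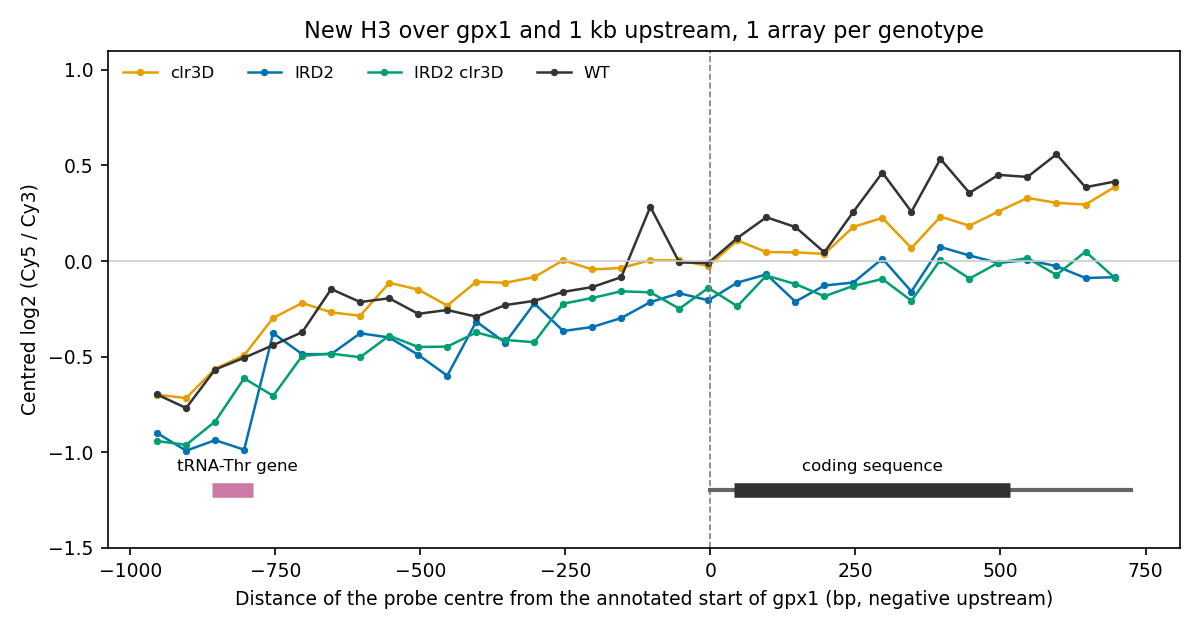
Centred log2 Cy5/Cy3 of each probe along gpx1 and 1 kb upstream (vertical axis, log2) against the distance of the probe centre from the annotated start (horizontal axis, bp), 1 line per array. The black bar is the coding sequence and the pink bar the tRNA-Thr gene. All 4 lines have their lowest probe 904 bp upstream, between -0.99 and -0.72, and climb towards the gene.

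Within gpx1 the ratio increased from the 5′ to the 3′ end in the clr3D, IRD2 clr3D and WT arrays, whereas in IRD2 it did not rise past the middle. Divided into 3 equal segments from 5′ to 3′, the body had 0.06, 0.18 and 0.32 in clr3D, -0.13, -0.03 and -0.04 in IRD2, -0.15, -0.10 and -0.02 in IRD2 clr3D and 0.14, 0.37 and 0.45 in WT, with 4, 5 and 5 probes. The distance of IRD2 from WT therefore widened along the gene, from -0.27 in the 5′ segment to -0.49 in the 3′ segment. From 247 to 697 bp after the start, 10 neighbouring probes were at least 0.25 below WT in IRD2, by a median of -0.46, and the same stretch in IRD2 clr3D also by a median of -0.46. With Cy5 alone the level fell from the middle to the 3′ segment in every array, in WT from -0.12 to -0.22. From 5′ to 3′, IRD2 minus WT was 0.05, 0.00 and -0.02 in Cy5, and 0.33, 0.41 and 0.47 in Cy3. The widening along the gene thus came with the extract channel.

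As a difference from WT, the gpx1 body was at -0.14 in clr3D, -0.40 in IRD2 and -0.42 in IRD2 clr3D, lower in 14 of 14 probes in each. It ranked 30th from the lowest of 873 bodies in IRD2 and 24th in IRD2 clr3D. The promoter was at 0.04 in clr3D, -0.22 in IRD2 and -0.19 in IRD2 clr3D, none of which reached 0.25. With normexp the body was at -0.30 in clr3D, past 0.25, and at -0.63 in IRD2 and -0.60 in IRD2 clr3D. The promoter was at -0.12 in IRD2 and -0.08 in IRD2 clr3D with normexp, at -0.06 in IRD2 clr3D with loess, and at -0.29 in IRD2 after scaling the arrays to one spread. With the processed signals, the 200 probes within 5 kb on either side differed from WT by -0.08 in clr3D, -0.06 in IRD2 and -0.16 in IRD2 clr3D, less than the body did. Of these flanking probes, 148 in clr3D, 120 in IRD2 and 167 in IRD2 clr3D were lower than WT. Loss of clr3 in the IRD2 background left both windows close to IRD2, with IRD2 clr3D minus IRD2 at -0.03 in the body and 0.02 in the promoter. Against clr3D, IRD2 clr3D was at -0.28 in the body and -0.24 in the promoter of gpx1, and at -0.19 and -0.39 in those of atf1. With normexp the promoter values of this comparison were -0.09 for gpx1 and -0.11 for atf1. At least 0.25 lower in that comparison were 4.12% of bodies and 10.7% of promoters.

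At the gpx1 body the channels shared the difference otherwise than at atf1. With Cy5 alone, the difference from WT was -0.17 in clr3D, 0.01 in IRD2 and -0.22 in IRD2 clr3D. The Cy3 difference was -0.04 for clr3D, 0.41 for IRD2 and 0.21 for IRD2 clr3D. The low ratio of IRD2 at this body came with the extract channel, and the Cy3 difference ranked 8th from the highest of 873 bodies, while the precipitate was level with WT. The promoter of gpx1 had Cy5 differences of -0.02 in clr3D, 0.13 in IRD2 and 0.19 in IRD2 clr3D, and Cy3 differences of -0.07, 0.35 and 0.39 in the same arrays.

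The lowest new H3 at gpx1 lay around the tRNA-Thr gene, whose near end is 788 bp upstream of the start. The 10 probes within 200 bp of that gene had means of -0.44 in clr3D, -0.71 in IRD2, -0.73 in IRD2 clr3D and -0.50 in WT. This window reaches past the far end of the promoter, so some of its probes lie outside the promoter set. The 12 promoter probes that lay farther away had means of -0.07 in clr3D, -0.34 in IRD2, -0.30 in IRD2 clr3D and -0.13 in WT. New H3 was thus lowest beside the tRNA gene in every array, and the differences of the promoter from WT were similar without it, at 0.06, -0.21 and -0.17 in clr3D, IRD2 and IRD2 clr3D. Probes next to the tRNA gene were also the dimmest of the locus, with the lowest processed Cy5 signal of each array between 41.1 and 59.5 units against array medians of 1062 to 1093. The 2 probes over the tRNA gene itself were brighter, with Cy3 at -0.15 in clr3D, 0.23 in IRD2, 0.18 in IRD2 clr3D and 0.02 in WT. Their ratios were -0.53, -0.96, -0.73 and -0.54 in the same order.

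**Figure D4:**
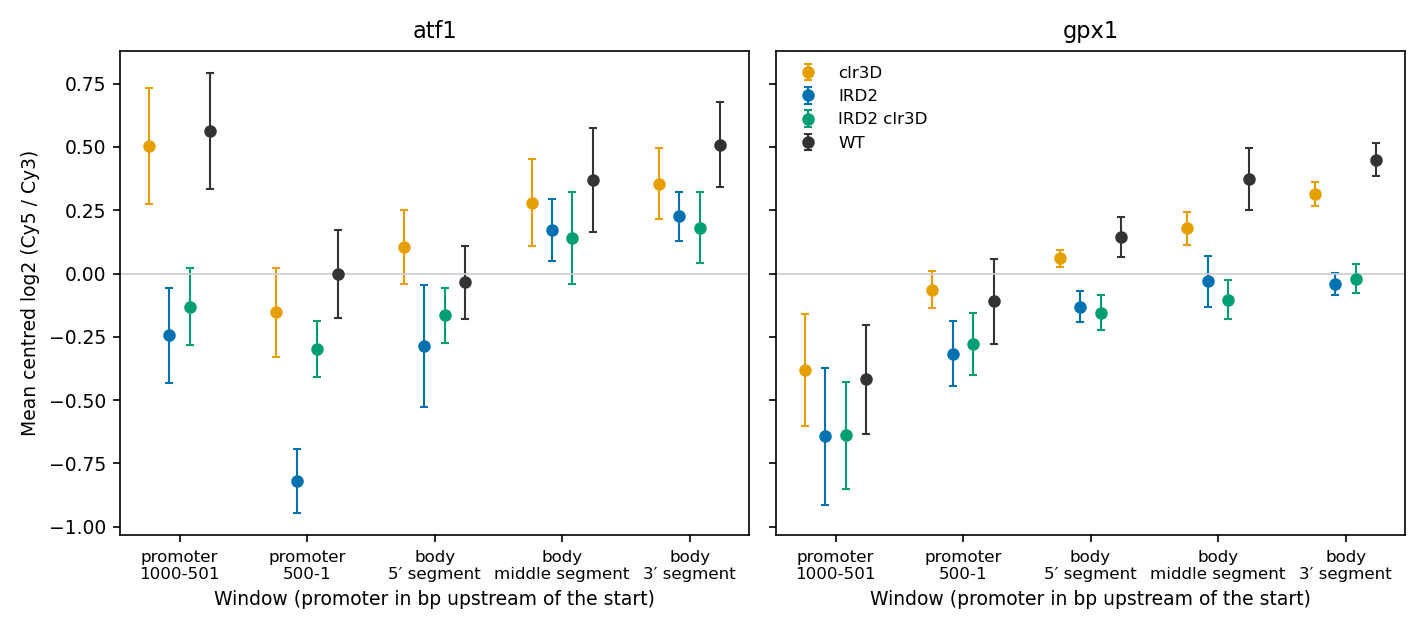
Mean centred log2 Cy5/Cy3 (vertical axis) of the probes in each of 5 windows along atf1 (left) and gpx1 (right), 1 point per array, with bars showing the SD between the probes of the window and not a replicate error. At atf1 the arrays are farthest apart in the promoter, with IRD2 at -0.82 next to the start, and at gpx1 both arrays labelled IRD2 are farther from WT in the middle and 3′ segments than in the 5′ segment.

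Body minus promoter compares the 2 windows within an array. For atf1 it was 0.07 in clr3D, 0.57 in IRD2, 0.27 in IRD2 clr3D and 0.00 in WT. For gpx1 it was 0.41 in clr3D, 0.42 in IRD2, 0.37 in IRD2 clr3D and 0.60 in WT. The body of gpx1 therefore had a higher ratio than its promoter in every array, and that of atf1 did so by at least 0.25 in the 2 arrays labelled IRD2. The gpx1 value includes the low probes beside the tRNA gene. Without them its promoter was at -0.07 in clr3D, -0.34 in IRD2, -0.30 in IRD2 clr3D and -0.13 in WT. That is nearer to the body but still below it in every array. For IRD2 clr3D at atf1 this turned with within-array loess, to -0.09, whereas IRD2 was then at 0.34. A body at least 0.25 above its promoter was found in 23.3% of genes in clr3D, 18.1% in IRD2, 23.1% in IRD2 clr3D and 23.8% in WT. The value of atf1 in IRD2 was 19th from the highest of 873, and that of gpx1 in WT 24th. As a difference from WT, body minus promoter of atf1 was 0.57 in IRD2, the 7th from the highest, and 6.87% of genes were at least 0.25 higher. The values of atf1 depended on the background correction and the promoter window. With normexp background correction they were 0.49 in clr3D, 0.49 in IRD2, 0.24 in IRD2 clr3D and 0.40 in WT. Without promoter probes inside neighbouring annotated genes they were -0.26 in clr3D, 0.39 in IRD2, 0.29 in IRD2 clr3D and -0.14 in WT, so IRD2 stayed above 0 and the clr3D and WT arrays did not keep a sign. The promoter is then only the probes centred 977 to 827 bp upstream.

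**Figure D5:**
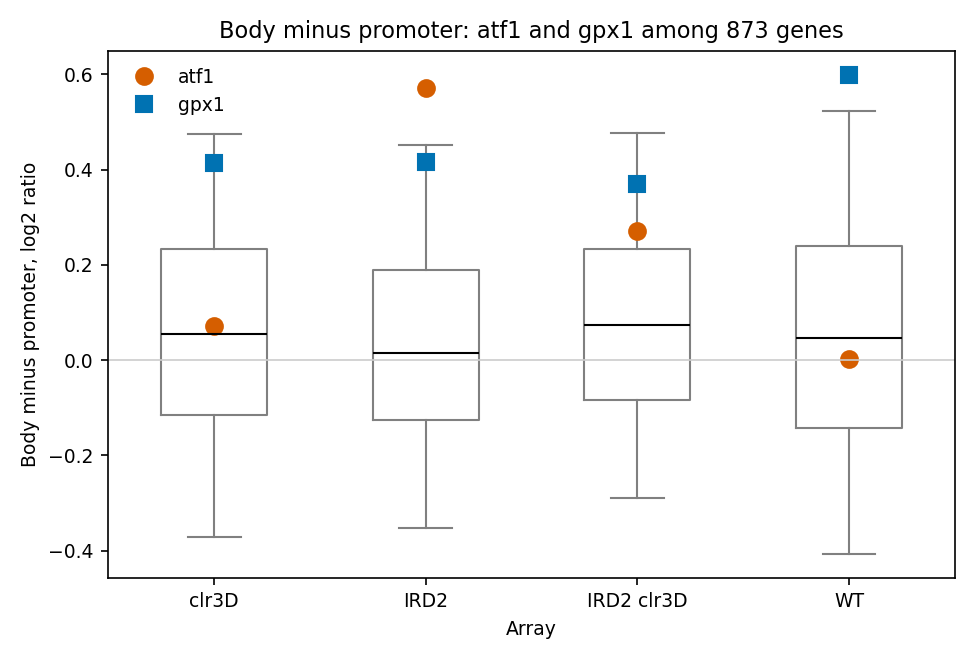
Body minus promoter, a difference of 2 mean log2 ratios (vertical axis), of atf1 (circles) and gpx1 (squares) in each array (horizontal axis), over box plots of all 873 genes (box, quartiles; line, median; whiskers, 5th to 95th percentile). The circle of atf1 lies above the upper whisker in IRD2, at 0.57, and on 0 in WT, whereas the square of gpx1 lies above it in WT, at 0.60.

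The one fit that the 4 arrays allow took the clr3 state and the IRD2 state as additive terms in limma's moderated test, with Benjamini-Hochberg adjustment over 873 genes. It has no interaction term, and the estimate of spread was pooled and the same for all genes. The only residual is how far each gene departs from additivity. The p-values therefore set an estimate against that departure over genes. Without replicates they do not measure the variation between cultures of one genotype. A gene's own interaction therefore did not set its SE. The adjusted p of the atf1 promoter does not reflect its difference of differences. For the IRD2 term, the atf1 promoter fell by 0.60 (log2; SE 0.09, adjusted p = 1.29e-08) and the gpx1 body fell by 0.34 (SE 0.08, adjusted p = 0.00157). The atf1 body was at -0.22 (adjusted p = 0.108) and the gpx1 promoter at -0.23 (adjusted p = 0.142) in this limma fit, which did not pass, although the atf1 body did with normexp (-0.38, adjusted p = 0.0113). The term called 5.04% of bodies and 7.67% of promoters as lower. The clr3 term, which called 0.802% of bodies and 0.802% of promoters as higher, passed for neither gene in the limma fit, with estimates from -0.08 to 0.10 and adjusted p from 0.748 to 0.979. With Cy5 alone neither call remained in the limma fit, with the atf1 promoter at -0.22 (adjusted p = 0.107) and the gpx1 body at -0.02 (adjusted p = 0.705). The atf1 promoter also did not pass in limma with normexp (-0.31, adjusted p = 0.379) or within-array loess (-0.51, adjusted p = 0.161), whereas the gpx1 body did with both. As the atf1 promoter had a difference of differences of 0.42, its single IRD2 estimate averages unlike values, -0.81 without and -0.39 with the loss of clr3. Without probes inside neighbouring genes, which leaves only those centred 827 bp or more upstream, these were -0.78 and -0.75.

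Other genes of the stress response were counted from 4 lists (the Sty1 MAP kinase pathway, stress transcription factors, peroxide and redox defence, other core stress genes). Of 66 listed genes, 9 lay on the tiles with enough probes, atf1 and gpx1 among them. The other 7 were mpr1 (histidine phosphotransferase upstream of Sty1), wis1 (the MAP kinase kinase of Sty1), atf21 (a bZIP factor), trx2 (mitochondrial thioredoxin), pgr1 (glutathione reductase), ccp1 (cytochrome c peroxidase) and hsp16 (a small heat shock protein). In the limma fit the IRD2 term passed as lower for the promoters of 3 of the 7 and for the body of 1, and the clr3 term passed as higher for the promoter of 1 and the body of 1. Over all 873 genes the IRD2 term passed as lower for 7.67% of promoters and 5.04% of bodies. The clr3 term passed as higher for 0.802% of each.

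The 3 promoters were those of wis1, trx2 and hsp16, of which hsp16 alone passed with Cy5 alone. For wis1 the promoter mean was 0.16 in clr3D, -0.05 in IRD2, -0.39 in IRD2 clr3D and 0.33 in WT. Here the double mutant was the lowest array, whereas at atf1 it lay above IRD2. With Cy5 alone the wis1 promoter differed from WT by -0.03 in clr3D, -0.11 in IRD2 and -0.11 in IRD2 clr3D, and with Cy3 alone by 0.12, 0.28 and 0.61. The trx2 promoter differed from WT by -0.08, 0.16 and 0.19 in these arrays with Cy5 alone, and by -0.07, 0.49 and 0.50 with Cy3 alone. hsp16 gave both the lower body and the higher clr3 calls, with a body mean of 0.68 in clr3D, -2.67 in IRD2, -1.05 in IRD2 clr3D and -0.02 in WT. The size of its values sets it apart from the rest of the list, where no body of the other 6 passed for either term.

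The genes whose levels were most like each of the 2, over body and promoter in 4 arrays (8 values), were ranked by the root mean square difference. For atf1 these were ero11 (0.103), pab2 (0.141), hmo1 (0.158), nrf1 (0.159) and wsc1 (0.162), against a median of 0.343 over all genes. ero11, the nearest, had promoter values of 0.04 in clr3D, -0.38 in IRD2, -0.34 in IRD2 clr3D and 0.20 in WT, so its double mutant lay beside IRD2 more closely than that of atf1 did. For gpx1 they were tim18 (0.101), ell1 (0.103), rps21 (0.116), yox1 (0.116) and glo1 (0.124), against a median of 0.344. The shape of the profile was more alike between arrays at gpx1, with Pearson r over its 34 probes from 0.91 to 0.96 in the ratio, than at atf1, with r from 0.66 to 0.86 over 92 or 93 probes. These are descriptions over neighbouring probes that share fragments and base composition.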

How the data were processed

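Per the file headers, the authors extracted the spot intensity of both dyes with software version 12.0.3.1 (Agilent Feature Extraction), which also gives processed signals after background subtraction and dye normalisation. The matrix that the authors deposited gives Cy5 divided by Cy3 as a linear ratio. It equalled the ratio of the processed signals in all 43993 probes of each array (tolerance 1e-06 on the log2 scale), so scale and direction are known; it is not centred, with column medians of 0.971 in clr3D, 1.01 in IRD2, 1.00 in IRD2 clr3D and 0.985 in WT. The genome build of the array is not given in the sources used here.

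Ratios of processed signals (Cy5/Cy3) were put on the log2 scale and centred on the median of each array, without the 1227 control spots and 9 to 21 outlier spots per array. Probes of 60 bases at a step of 50 bp were placed on the annotation of ASM294v3 with an offset of 900 bp at atf1 and 1800 bp at gpx1. In windows of 200 probes, extract signal and GC content correlated best at offsets of 905 and 1800 bp (r 0.669 and 0.693), and positions are no finer than the probe spacing. A gene needed 3 probes in body and promoter. A difference was counted as called at 0.25 log2.

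Additive fits (lmFit, eBayes) over all 873 genes were made in R 4.3.3 with limma 3.58.1, with body and promoter means fitted separately and Benjamini-Hochberg adjustment at 0.05. The prior degrees of freedom were infinite, so every gene had the same SE. The fit was also run on simulated body means with a common spread, no interaction and changes added to the clr3 term only. That run cannot check the calls of the IRD2 term. Python 3.11.15 made the windows and figures. The files used here have no mean signals, so normexp (offset 50) was run on median signals. Of 66 listed stress genes, 64 matched a symbol of the annotation. atf1, gpx1, the measured list members, the 5 genes closest to each and genes overlapping them are named. The members and lists were chosen with earlier results of these data known. The number of arrays, 1 per genotype, limits the precision.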

Additional observations from a re-analysis of the deposited data

Results flagged for a closer look

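At the atf1 promoter, the loss of clr3 went with values of opposite sign in the 2 backgrounds when the whole 1 kb was used, but not without probes inside neighbouring genes. IRD2 clr3D minus IRD2 was 0.31 and clr3D minus WT was -0.11, each from 1 array against 1 array. The value of -0.11 was within its SD between probes of 0.14, which is a spread along the window and not an error. Without probes inside neighbouring genes IRD2 clr3D minus IRD2 was 0.11 and clr3D minus WT was 0.08, of like sign. That setting keeps only probes centred 977 to 827 bp upstream, of which the one at 877 bp is missing in IRD2 clr3D. In the 500 bp next to the start, which it leaves out, the values were 0.52 for IRD2 clr3D minus IRD2 and -0.15 for clr3D minus WT. There the SD between probes of clr3D minus WT was 0.09. The difference of differences was not tested.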

How the results depend on the processing

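The 4 arrays allow no replicate check, and leaving a genotype out was not possible. No paired analysis was possible because each genotype has 1 array. The authors' matrix, medians over probes, leaving out dim probes, the coding sequence as body, an offset larger by 100 bp and, added after seeing the data, the gpx1 promoter without the tRNA gene moved no value of atf1 or gpx1 by more than the SD between its probes and changed no call of the fit for either gene. Some values near 0.25 did cross it, the atf1 body differences from WT among them. The authors' matrix holds the same ratios, so it could move nothing. Leaving out dim probes took away only those not well above background, none at atf1 and 1 at gpx1. The dim probes that stayed were not tested by it. The SD between probes is the spread along a window and not an error. For the gpx1 promoter it includes the probes beside the tRNA gene. Where another setting moved a value, the cause was not tested. The dimmest probes lie beside the tRNA gene, and their ratios are the least certain. The distal promoter of atf1 also holds dim probes, down to 76.4 units of Cy3 in WT.

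With Cy5 alone, the atf1 body differed from WT by -0.042 in IRD2 and -0.041 in IRD2 clr3D, and its promoter by -0.47 and -0.0070. The atf1 promoter difference of IRD2 clr3D minus clr3D changed sign to 0.039, and its WT level, a single-channel level on another scale, was -1.35. The gpx1 body was at 0.0069 in IRD2, a change of sign, and -0.22 in IRD2 clr3D, the gpx1 promoter at 0.13 and 0.19, and the gpx1 body level in WT at -0.30. Body minus promoter of atf1 with Cy5 alone was 2.09 in clr3D, 2.47 in IRD2, 2.01 in IRD2 clr3D and 2.04 in WT, and of gpx1 1.24, 1.27, 0.99 and 1.39 in that order. The fit called 1 body by the clr3 term, 6 bodies by the IRD2 term and 182 promoters by the IRD2 term, against 8, 45 and 69 with the ratio. These counts take both directions together, and with the ratio 67 of the 69 promoters were lower. With Cy5 alone the median of IRD2 minus WT over all promoters was 0.07, and 31.7% of them were below 0.

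With Cy3 alone, the atf1 body was at 0.21 in IRD2 and 0.20 in IRD2 clr3D against WT, and the atf1 promoter at 0.050 in clr3D, 0.35 in IRD2 and 0.50 in IRD2 clr3D, with 0.45 for IRD2 clr3D minus clr3D and a WT level of -1.65. The gpx1 body was at -0.036, 0.41 and 0.21 in those arrays, with 0.25 for IRD2 clr3D minus clr3D and a WT level of -0.65, and the gpx1 promoter at -0.070, 0.35 and 0.39. Body minus promoter of atf1 was 2.02 in clr3D, 1.90 in IRD2, 1.74 in IRD2 clr3D and 2.04 in WT, and of gpx1 0.83 in clr3D and 0.85 in IRD2. The IRD2 term was 0.33 for the gpx1 body, 0.40 for the atf1 promoter and 0.41 for the gpx1 promoter.

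With normexp, the difference from WT was -0.39 for the atf1 body in IRD2 clr3D, -0.50 and -0.23 for the atf1 promoter in IRD2 and IRD2 clr3D, -0.30, -0.63 and -0.60 for the gpx1 body in clr3D, IRD2 and IRD2 clr3D, and -0.084 for the gpx1 promoter in IRD2 clr3D. Body minus promoter of atf1 was 0.49 in clr3D and 0.40 in WT, that of gpx1 0.85 in WT, and the WT level of the atf1 promoter -0.020. With loess, body minus promoter of atf1 in IRD2 clr3D changed sign to -0.095, and the gpx1 promoter in IRD2 clr3D was at -0.062 against WT. With a promoter of 500 bp, the atf1 promoter level in WT was -0.0015. Without neighbouring genes, where only probes centred 827 bp or more upstream remain, the atf1 promoter in clr3D was at 0.081 against WT.

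The clr3 term in limma called 8 of 873 promoters. Counted anew over all 873 under each other setting, it called 0 with Cy3 alone, normexp, loess or an offset smaller by 100 bp (98, 96, 87 and 85 at an unadjusted p under 0.05), 5 with a promoter of 500 bp, 4 without neighbouring genes and 3 after scaling arrays to one spread. For the IRD2 term, the count of promoters was 69 with the ratio as processed, against 3 with normexp, 2 with loess, 23 with an offset smaller by 100 bp, 37 with a promoter of 500 bp, 44 without neighbouring genes and 40 after scaling. The clr3 term called 8 bodies, against 16 with loess and 1 after centring on chromosome II or scaling, and the IRD2 term 45, against 20 with either. Of the 7 other stress genes, the IRD2 term was called lower in limma for 1 promoter with Cy5 alone and for 0 promoters and 0 bodies with Cy3 alone (also 0 at an unadjusted p under 0.05), against 3 promoters and 1 body with the ratio.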
